A study of Mus musculus with 3 samples.

Results

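Tgm3 and 4 related transglutaminase genes, Tgm1, Tgm2, Tgm5 and F13a1, were examined in the distal colon of mice with dextran sulfate sodium (DSS) colitis. Each gene was represented by the probe set that carried its symbol alone, and the 5 genes stand among 19938 genes with such a probe set. Tgm3 had been selected on the measured values, because its log2 signal showed the largest increase of any gene in IL-4Rα-/- colitis over WT colitis, and the other genes were taken as its relatives. The values of that comparison are therefore a description of Tgm3 and support nothing further. Male BALB/c littermates were measured on day 7 in 3 groups. WT normal mice drank water and WT colitis mice drank 3% DSS for 7 days. IL-4Rα-/- colitis mice, which lack the α subunit of the interleukin-4 receptor in all tissues, drank the same 3% DSS. RNA was pooled from 4 untreated WT mice, 3 WT mice on DSS and 6 knockout mice on DSS into 1 sample per group and put on 1 GeneChip Mouse Gene 1.0 ST array each, so no difference between groups has an error or a p-value. Below, the DSS contrast is the log2 signal of WT colitis minus that of WT normal, and the genotype contrast is that of IL-4Rα-/- colitis minus that of WT colitis. Untreated IL-4Rα-/- mice were not analysed here. The severity of colitis varied together with genotype, as body weight on day 7 was 78.0 to 83.8% of the initial weight in the WT colitis pool and 95.1 to 100.8% in the IL-4Rα-/- colitis pool, and the disease activity index was 3 to 4 and 0 to 3.

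Transglutaminases are calcium-dependent enzymes that join proteins by a bond between a glutamine and a lysine side chain, which makes protein networks that resist proteolysis. Tgm1, Tgm3 and Tgm5 are best known from stratified epithelium, where they build the cornified envelope of the outermost cells, and Tgm3 is made as a precursor that proteases cut to activate it. In the mouse colon Tgm3 is made by the epithelium, and it has been linked to cross-linking of the Muc2 mucin of the mucus layer. Tgm2, tissue transglutaminase, acts on the extracellular matrix in many tissues and also binds GTP. F13a1 encodes the catalytic subunit of coagulation factor XIII, which stabilises fibrin and is made by macrophages and megakaryocytes.

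The 250 bases before the annotated start of Tgm3 are shown because Tgm3 alone among the members differed widely between the arrays, and those of Tgm5 for comparison with a relative whose signal stayed near background. Both come from RefSeq on GRCm38.p6, at chr2:130012090-130012339 on the plus strand for Tgm3 and chr2:121085842-121086091 on the minus strand for Tgm5, and capitals mark a match to the TATA box letters TATAAA.
Tgm3: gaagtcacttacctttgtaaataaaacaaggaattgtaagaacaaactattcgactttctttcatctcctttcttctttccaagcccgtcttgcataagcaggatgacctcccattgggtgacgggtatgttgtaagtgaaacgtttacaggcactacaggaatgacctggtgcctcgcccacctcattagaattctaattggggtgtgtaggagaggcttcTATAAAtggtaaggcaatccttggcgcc
Tgm5: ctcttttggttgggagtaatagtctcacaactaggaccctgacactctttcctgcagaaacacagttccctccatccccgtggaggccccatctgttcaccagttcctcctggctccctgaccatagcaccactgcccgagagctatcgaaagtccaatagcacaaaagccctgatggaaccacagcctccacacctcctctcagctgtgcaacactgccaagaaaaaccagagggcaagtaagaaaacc
Windows of this kind were found for 4 of the 5 members. Only that of Tgm3 held TATAAA, which began 28 bases before the start on the strand of the gene, and the windows of Tgm1, Tgm5 and F13a1 held none on either strand. Of all 32851 such windows, 12.4% held TATAAA on either strand. The letters TTCNNNNGAA, a site of STAT6, the factor that acts below the interleukin-4 receptor, were searched on both strands as well, as were the letters TTTATGG, a site of the intestinal CDX factors. Neither was found in these windows of the 4 members, and 5.9% and 2.4% of all windows held them. These matches describe letters and do not show that a factor binds.

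For Tgm3, the WT normal array gave a log2 signal of 8.48, the WT colitis array 5.07 and the IL-4Rα-/- colitis array 8.71. The WT colitis array was low, while the arrays of untreated WT and of IL-4Rα-/- colitis mice were high and close to each other. In the DSS contrast Tgm3 was 10.6-fold lower, at -3.41 on the log2 scale. In the genotype contrast it was 12.5-fold higher, at 3.64. Set against WT normal, IL-4Rα-/- colitis was 1.17-fold higher, at 0.23. Both of the larger differences use the WT colitis array, so they are not independent of each other. All 3 signals were above background, taken on each array as the 95th percentile over 1210 olfactory and vomeronasal receptor probe sets, which lay at 3.48, 3.53 and 3.5 on the 3 arrays. When 32 was added to the linear signals, which shrinks differences of dim probe sets, the log2 differences of Tgm3 were -2.57 and 2.78. In colon tissue, fewer cells that make a transcript and less transcript per cell cannot be told apart.

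**Figure D1:**
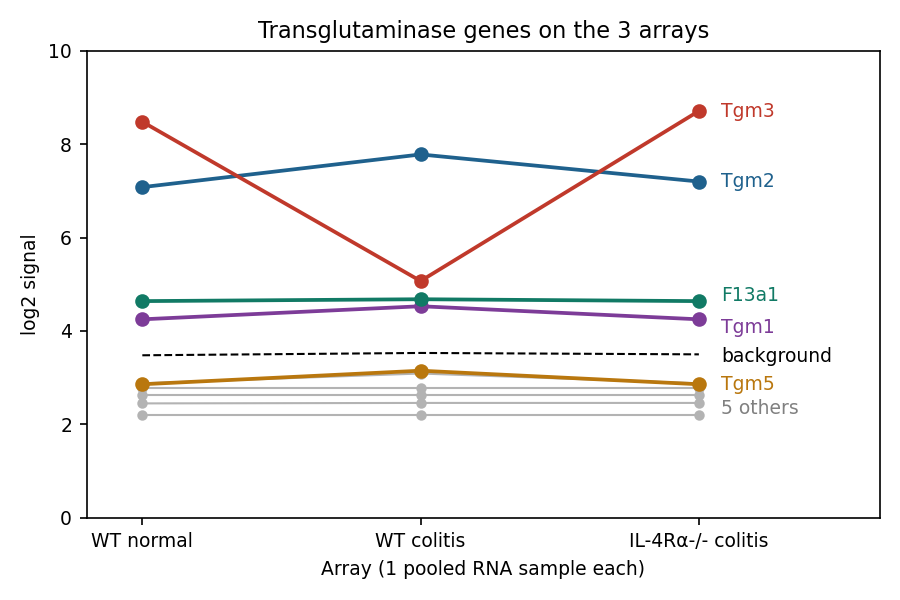
Log2 signal (y axis) of Tgm1, Tgm2, Tgm3, Tgm5 and F13a1 (coloured) and of Tgm4, Tgm6, Tgm7, Epb42 and F13b (grey) on the array of each group (x axis), 1 point per array, with a dashed line at the background level of each array. Tgm3 drops to 5.07 in WT colitis between 8.48 and 8.71, while Tgm2 is highest there at 7.78; heights of different genes come from different probes and are not comparable.

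Tgm2 gave log2 signals of 7.08, 7.78 and 7.20 in the same order of groups, which is kept for all genes below. It was highest in WT colitis, opposite to Tgm3. It was 1.62-fold higher in the DSS contrast and 1.49-fold lower in the genotype contrast, and thus within 2-fold in both. The size of its DSS contrast was larger than that of 96.3% of all genes, since most genes differed little between the arrays. Tgm1 had 4.25, 4.53 and 4.25, only slightly above background on each array. Tgm5 had 2.86, 3.15 and 2.86 and was below background on all 3 arrays, so its differences of 0.29 and -0.29 cannot be read as a change of the gene. F13a1 had 4.64, 4.68 and 4.64, and its log2 differences of 0.04 and -0.04 were the smallest among the members. Apart from Tgm3, the log2 differences of the members ranged from 0.04 to 0.70 in the DSS contrast and from -0.58 to -0.04 in the genotype contrast. As deposited, the values of these 4 were thus slightly higher on the WT colitis array, but the sign of F13a1 turned after centring on the array medians, to -0.03 and 0.03, and after quantile normalization, to -0.0567 and 0.0567. Tgm1, Tgm5 and F13a1 had the same value, to 2 decimals, in WT normal and IL-4Rα-/- colitis, but so did 65.8% of all genes.

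The median log2 difference of the 5 members was 0.28 in the DSS contrast and -0.28 in the genotype contrast, against 0 for all genes in both. In each of these contrasts 52.3% of genes had equal values on both arrays, which alone sets the median of all genes at 0. Of the 5 members, 1 was more than 2-fold lower and 0 were higher in the DSS contrast, where 0.456% of all genes were lower and 1.16% higher. In the genotype contrast, 1 was more than 2-fold higher and 0 were lower, where 0.271% of all genes were higher and 0.908% lower. Compared with WT normal, 0 members were past 2-fold in IL-4Rα-/- colitis in either direction, where 0.186% of all genes were higher and 0.336% lower. The single member counted in the first and second comparison was Tgm3, and these counts are the choice of Tgm3 seen again.

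Among all genes, Tgm3 ranked 1 for increases in the genotype contrast, which is how it was chosen. Next came Nox1, an epithelial NADPH oxidase, with a log2 difference of 2.89. Among decreases in the DSS contrast Tgm3 ranked 11. The 10 genes with larger decreases included Ctrb1 and Cpa1, digestive enzymes of the pancreas, and had log2 signals between 2.3 and 4.00 in IL-4Rα-/- colitis, so none of them was high again there as Tgm3 was. The closest of the 10 was Pnliprp1, a pancreatic lipase relative, with log2 signals of 6.42, 2.98 and 2.44. The gene ranked after Tgm3 was Pla2g1b, the pancreatic phospholipase, with 6.79, 3.67 and 3.30. The part of these pancreatic transcripts of the WT normal array in the rank of Tgm3 was not tested. Outside the transglutaminases, 27 genes were more than 2-fold lower in the DSS contrast and more than 2-fold higher in the genotype contrast, and 138 had the opposite pattern.

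**Figure D2:**
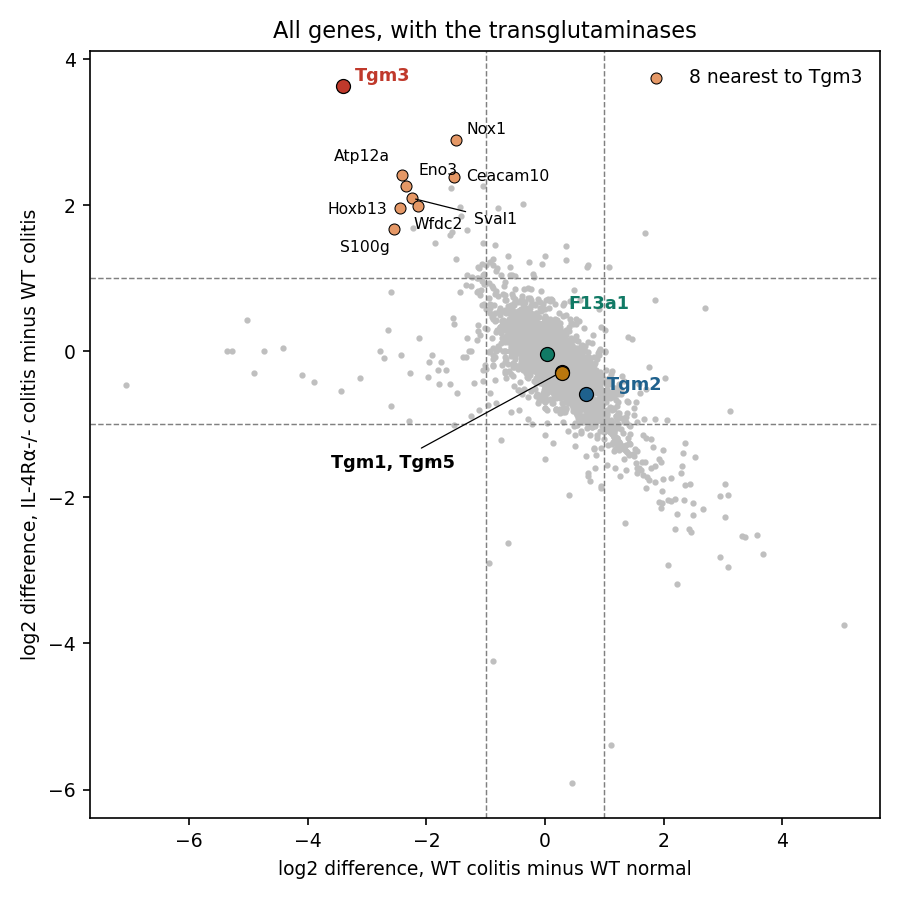
DSS contrast (x axis, log2, WT colitis minus WT normal) against genotype contrast (y axis, log2, IL-4Rα-/- colitis minus WT colitis), 1 grey point per gene, with the 5 members and the 8 genes nearest to Tgm3 marked and dashed lines at 2-fold. Tgm3 lies alone at -3.41 and 3.64, and the other members lie within 2-fold; both axes use the WT colitis array, so a slope from upper left to lower right is built in.

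The genes with the pattern most like that of Tgm3 were found by the distance between pairs of log2 differences, over 3 arrays and therefore with no measure of error. The nearest was Atp12a, the proton pump of the colonic surface, at a distance of 1.59, with log2 signals of 7.82, 5.41 and 7.82. Eno3, an enolase, followed with 9.11, 6.76 and 9.03. Hoxb13, a homeobox factor of the hindmost gut, had 7.92, 5.47 and 7.44. The other 5 genes of the 8 had their lowest signal in WT colitis as well. This shared dip follows from choosing the 8 by these same differences and supports nothing. Sval1 had 10.08, 7.83 and 9.93, and Wfdc2, a protease inhibitor, had 7.79, 5.65 and 7.64. In Nox1, with 6.97, 5.47 and 8.36, and in Ceacam10, with 8.38, 6.84 and 9.23, the signal in IL-4Rα-/- colitis was above that of WT normal. S100g, a calcium-binding protein, had 7.61, 5.06 and 6.73 and was the furthest of the 8 below WT normal in IL-4Rα-/- colitis. The dip of Tgm3 was deeper than that of each of the 8, whose DSS contrasts ranged from -2.55, in S100g, to -1.5, in Nox1.

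**Figure D3:**
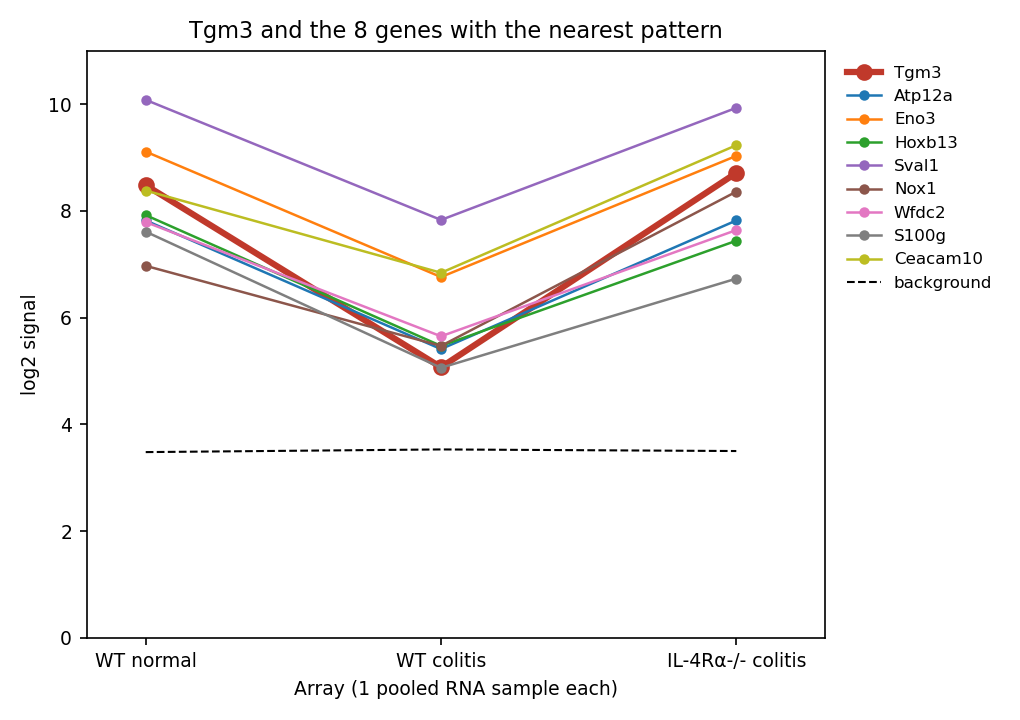
Log2 signal (y axis) of Tgm3 (thick line) and of the 8 genes with the nearest pattern on the 3 arrays (x axis), 1 point per array, with a dashed line at background. All 9 lines have their lowest point in WT colitis, with Tgm3 at 5.07 and Atp12a at 5.41, which follows from how the 8 were chosen.

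Hoxb13 is expressed in the most distal colon, and its signal was 5.46-fold lower in the DSS contrast and 3.92-fold higher in the genotype contrast. Hoxd13, another posterior homeobox gene on the list of colon markers, had 5.70, 5.66 and 6.31. It lacked the dip but was higher in the genotype contrast, at 0.65. Hoxa13, also on that list, stood at -0.2 and 0.27 in the DSS and genotype contrasts, the directions of Hoxb13. Of 15 markers of colon tissue, all were above background, 2 passed 2-fold in the DSS contrast, both lower, with a median of -0.11, and 1 was higher and 0 lower in the genotype contrast, with a median of 0.11. Their summed linear signal was 32441, 30412 and 31052. Muc2, named after its values were seen because of its link to Tgm3, had 12.83, 12.88 and 12.71 and showed no such dip. Of 23 measured markers of surface colonocytes, the cells at the mouth of the crypts, 3 lay more than 2-fold below WT normal and 2 more than 2-fold above it in WT colitis, and 5 were higher and 0 lower in the genotype contrast. Among those with the dip were Aqp8, a water channel, with 9.59, 8.03 and 9.67, and Slc20a1, a phosphate transporter, with 9.05, 7.55 and 8.81. Others did not follow Tgm3 in the DSS contrast, such as Dhrs9, a retinol dehydrogenase, with 5.6, 7.36 and 7.14, and Nos2, inducible nitric oxide synthase, with 3.63, 5.31 and 6.93. In the genotype contrast Nos2 was higher, as Tgm3 was, at 1.62, and Dhrs9 was at -0.22. The largest genotype contrast of the list was that of Slc37a2, at 2.02, with log2 signals of 5.56, 5.19 and 7.21. Over the whole list the median was -0.01 in the DSS contrast and 0.11 in the genotype contrast, and 1 of the 23 was at background on all arrays. Its summed linear signal was 31009, 27961 and 30762, a sum that the brightest genes dominate. Whether the piece of colon taken, or the share of surface cells in it, had a part in the values of Tgm3 was not tested.

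Tgm1, Tgm3 and Tgm5 act on cornified envelope proteins in stratified epithelium. Of 32 measured substrates on that list, 1 was more than 2-fold higher and 0 lower in the DSS contrast, and 1 was lower and 0 higher in the genotype contrast. The gene in both counts was Krt10, a keratin of the upper epidermis, with log2 signals of 3.66, 5.0 and 3.66. Dsp, desmoplakin of the desmosomes, had 8.99, 9.60 and 9.35. Krt1, Lce1a1 and Sprr3 had signals of at most 3.56 on any array. Of the 32, 19 were at background on all 3 arrays, so most envelope substrates of Tgm1, Tgm3 and Tgm5 were not measured above background in this tissue. Markers of squamous epithelium, which adjoins the rectum at the anus, were read beside them. Of 20 markers, 2 were more than 2-fold higher and 0 lower in the DSS contrast, with a median of 0.20. In the genotype contrast 2 were lower and 0 higher, with a median of -0.165. In both contrasts they were Krt5, a basal keratin, with 3.09, 5.17 and 3.14, and Krtdap, a keratinocyte protein, with 2.53, 3.95 and 2.53. Over the markers above background on some array, the medians were 0.405 and -0.405. Krt5 and Krtdap passed that filter only through WT colitis, where they were high, so these 2 medians support nothing. Krt14, the partner of Krt5, had 4.11, 4.63 and 4.11, and 10 of the 20 markers were at background on all arrays, Krt6a among them. The markers did not move alike, as Serpinb5 stood at 0.2 and 0.29 in the DSS and genotype contrasts, and Dsg3, Krt17 and Calml3 at 0 in both. The summed linear signal of this list was 323, 411 and 384. Tgm1 was highest on the same array as Krt5 and Krtdap, whereas Tgm3 was lowest there. The part of squamous tissue in the small differences of Tgm1 was not tested.

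Of 9 proteases reported to process transglutaminases, 0 passed 2-fold in any comparison, with a median of 0.21 in the DSS contrast and -0.17 in the genotype contrast. Cathepsin L, encoded by Ctsl, which can activate Tgm3, had 7.84, 8.39 and 7.84. Cathepsin S, encoded by Ctss, had 7.27, 7.67 and 7.46. Both were highest in WT colitis. Processing of the Tgm3 protein was not tested. Of 21 measured transcription factors of epithelial differentiation, 1 was more than 2-fold higher and 0 lower in the DSS contrast, and 0 passed 2-fold in the genotype contrast. That factor was Prdm1, a repressor known from immature gut epithelium and plasma cells, with 4.61, 6.00 and 5.32. Cdx2, the master factor of the intestinal lining, had 7.17, 7.59 and 7.48. Maf and Tfap2a stood at 0.57 and 0.45 in the DSS contrast, and Tfap2a was below background on each array.

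Tgm2 and factor XIII act on the matrix and on clots. Of 18 measured substrates, 1 was more than 2-fold higher and 0 lower in the DSS contrast, while 2 were lower and 0 higher in the genotype contrast. The medians were 0.475 and -0.53, with Tgm2 itself at 0.70 and -0.58. The median of all genes was 0, as set by the genes with equal values. Dcn, decorin, had log2 signals of 9.49, 10.76 and 9.49, and Nid1, a linker protein of basement membranes, had 6.60, 7.60 and 6.4. Fn1, fibronectin, had 9.58, 10.36 and 9.40. All 3, named for their large differences, were highest in WT colitis, on the same array as Tgm2. Not every substrate was, as Mfap5 stood at -0.79 and 0.08 in the DSS and genotype contrasts, and Fgb, Vtn and Serpinf2 at 0 in both. Of 12 measured binding partners and inhibitors of Tgm2, 0 passed 2-fold in any comparison, and their medians in these contrasts were 0.32 and -0.275. Among them, Lrp1, an endocytic receptor, had 7.67, 8.29 and 7.67, and Itgb3, an integrin, had 5.63, 6.12 and 5.59. Adgrg1, an adhesion receptor that binds Tgm2, had 7.31, 7.82 and 7.31.

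Because Tgm2 is made by endothelium and smooth muscle, their markers were set beside it. Of 16, 1 was more than 2-fold higher in the DSS contrast and 1 was more than 2-fold lower in the genotype contrast, namely the endothelial cadherin Cdh5, with 5.65, 6.71 and 5.64. Pecam1, another endothelial marker, had 5.44, 6.12 and 5.44. The markers did not move alike in the DSS contrast, where the endothelial markers ranged from 0.23, in Eng, to 1.06, in Cdh5, and the smooth muscle markers from -0.38, in Actg2, to 0.24, in Myh11. Tagln, Cnn1, Des and Acta2, contractile and filament genes of smooth muscle, were at -0.27, -0.22, -0.09 and -0.04. The medians of the list were 0.235 and -0.305, its summed linear signal was 9798, 9155 and 8250, and 0 of the 16 were at background on all arrays. For F13a1, 17 macrophage and monocyte markers were measured, of which 1 was more than 2-fold higher in the DSS contrast and 1 was more than 2-fold lower in the genotype contrast, with medians of 0.22 and -0.17. This was Cd163, a scavenger receptor, with 3.12, 4.22 and 3.12, above background in WT colitis only. Mrc1, a mannose receptor, had 5.0, 5.84 and 5.0, and C1qb, a complement component, had 7.38, 8.14 and 7.38. These were named for their large differences, and the list did not move alike. C1qa stood at 0.02 and 0 in the DSS and genotype contrasts, Adgre1 at 0 and -0.02, and Cd14 at 0.35 and 0.5. The summed linear signal of the macrophage list was 837, 1115 and 883, 4 of the 17 were at background on all arrays, and F13a1 had nearly the same signal throughout. Of 7 platelet and megakaryocyte markers, 1 was more than 2-fold higher in the DSS contrast and lower in the genotype contrast. This was the chemokine Ppbp, with 3.47, 4.64 and 3.47, above background in WT colitis only. Itga2b, a platelet integrin, had 3.80, 4.08 and 3.69. The 7 markers did not move alike, as Tubb1 stood at -0.22 and 0 in these contrasts, and Gp9 and Treml1 at 0 in both. The medians of the platelet list were 0.06 and -0.06. Of the 7, 2 were at background on all arrays, and the summed linear signal of that list was 86.1, 106 and 82.2. The part of these cell types in the values of Tgm2 and F13a1 was not tested.

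**Figure D4:**
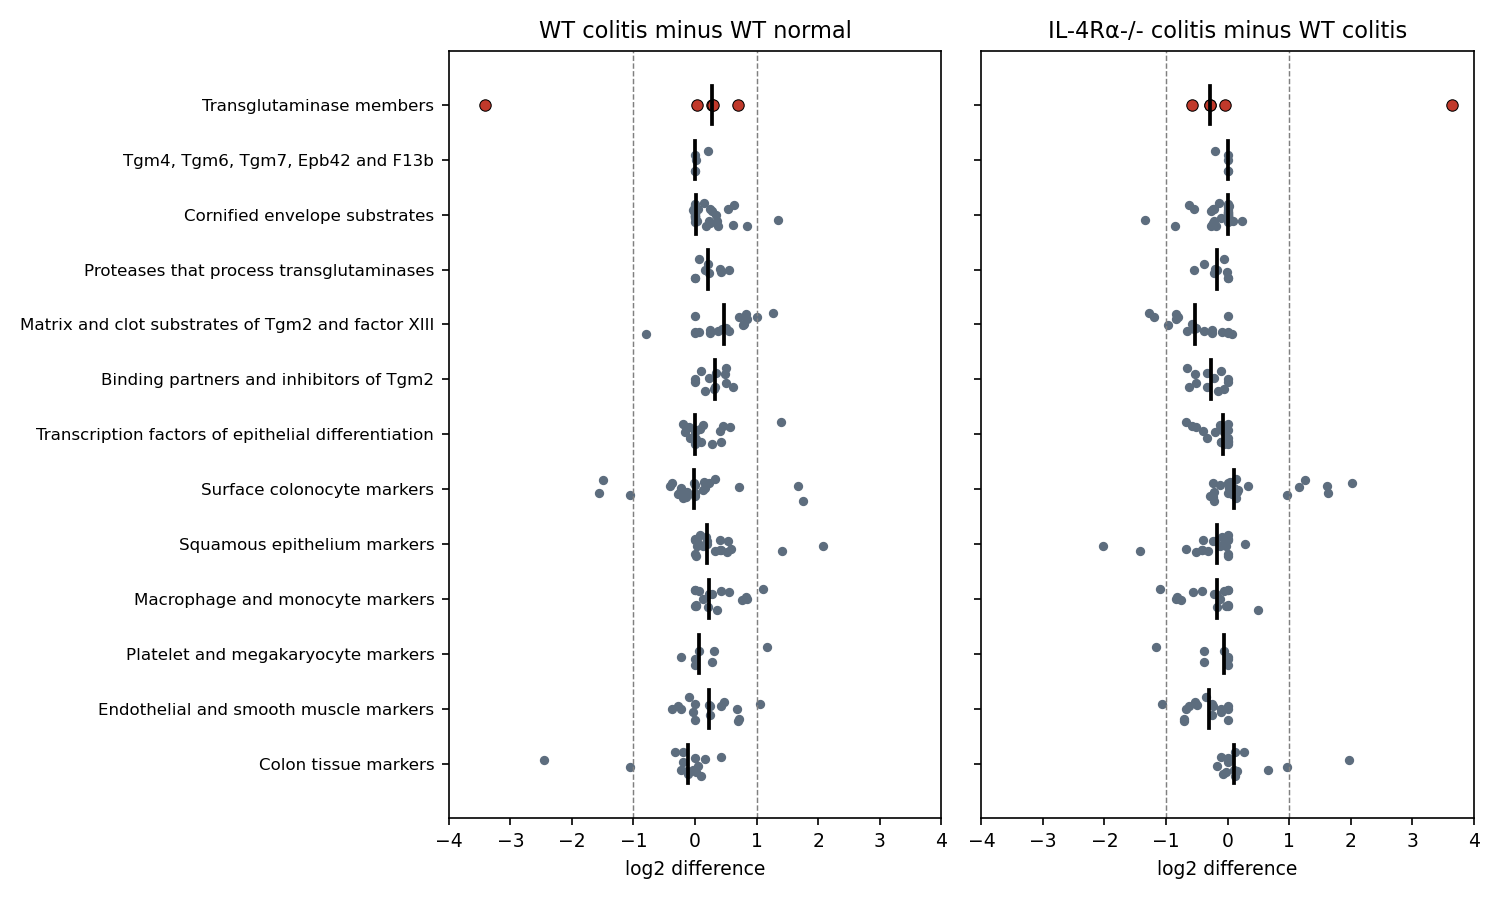
Log2 difference (x axes) of each gene of the 5 members (red) and of 12 gene lists (grey, y axis) in the DSS contrast (left) and the genotype contrast (right), with a black bar at each median and dashed lines at 2-fold. Tgm3 stands at -3.41 on the left and 3.64 on the right, beyond every listed gene, and the matrix substrates have the median furthest from 0 among the lists.

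Another 5 genes were set beside the members: Tgm4, the prostate enzyme, Tgm6, Tgm7, Epb42, an enzymatically inactive relative in the red cell membrane, and F13b, the carrier subunit of factor XIII, which is no transglutaminase. All were below background on all 3 arrays, and 0 of the 5 passed 2-fold in any comparison. Tgm7 had log2 signals of 2.88, 3.09 and 2.88, and Tgm4 had 2.45, 2.46 and 2.46. Tgm6 at 2.78, Epb42 at 2.62 and F13b at 2.2 did not differ at all between the arrays.

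By the gene order of RefSeq, Tgm2, Tgm3 and Tgm5 lie on chromosome 2, Tgm1 on chromosome 14 and F13a1 on chromosome 13. Tgm5 lies between Epb42 and Tgm7, all 3 of which were below background. Tgm6 is the second protein-coding gene after Tgm3, with AU015228 between them at 2.29 on all arrays. Stk35, the gene before Tgm3, encodes a kinase and had 7.92, 7.97 and 7.92, and Snrpb, a splicing protein gene beyond Tgm6, had 7.48, 6.88 and 7.41. None of the 3 protein-coding genes on either side of Tgm3 passed 2-fold in the DSS contrast. The third such gene after Tgm2, Lbp, the lipopolysaccharide-binding protein, had 5.33, 7.35 and 6.98, and the gene next to F13a1, Ly86, an immune cell receptor partner, had 6.06, 6.78 and 6.06.

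The genotype was read from Il4ra, the targeted gene, which had log2 signals of 5.69, 6.63 and 4.76 and so was lowest in the knockout pool, yet still above the background of 3.5 there. Whether its probes lie inside the disrupted exons was not examined. The arrays had median log2 signals of 4.11, 4.18 and 4.11, and the 3 values of a probe set were identical for 46.9% of the 28944.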

How the data were processed

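Distal colon RNA was pooled by group before the arrays, 1 array per group. Per the methods of the study, GeneChip Mouse Gene 1.0 ST arrays were scanned and analysed with Affymetrix software, whereas the labels describe Cy3 labelling with an Agilent kit. The probe set numbers matched the GeneChip annotation. The authors deposited log2 signals with 2 decimals; the summary and normalization method and the genome build are not given in the sources used here. Of 28944 probe sets, 21789 had 1 gene symbol, 1621 had several and 5534 had none here, and 21698 of the former were matched to RefSeq by gene number. The probe set with the highest mean over the arrays stood for a gene, and each member had 1. Differences between log2 signals were computed for 3 comparisons, with more than 2-fold as the threshold and, with 1 array per group, no test.

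The members and the 12 gene lists were chosen with earlier results of these data known. Named genes were every member, the other family genes, the 8 genes nearest to Tgm3, its neighbours in rank and Il4ra. From each list, up to 5 of the genes with the largest difference were named. The genes around the members on the chromosomes, Muc2 and the genes with larger decreases than Tgm3 were added after values were seen. Further list genes that show the spread of a list, such as Mfap5, C1qa and Tagln, were added then as well. The alternatives were quantile normalization, centring on the array median, an offset of 32, averaging the probe sets of each gene, and only genes above background. Counting was tested on simulated data. The number of arrays limits the precision. Python 3.11.15, numpy 2.4.6, pandas 2.3.3 and matplotlib 3.10.9 were used.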

Additional observations from a re-analysis of the deposited data

How the results depend on the processing

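After 32 was added to every linear signal, Tgm3 stood at -2.57 in the DSS contrast and 2.78 in the genotype contrast, and its rank among the decreases was 7. Tgm5 then stood at 0.0582 and -0.0582 in these contrasts, and Tgm1 at -0.111 in the genotype contrast. An offset shrinks differences of dim probe sets by its construction. Under the 5 alternatives the other 67 differences of the members moved by less than a robust SD over genes whose 3 values were not all equal, which was 0.178 in the DSS contrast, 0.148 in the genotype contrast and 0.0741 between IL-4Rα-/- colitis and WT normal. Much of this was fixed in advance. Averaging could not change a member with 1 probe set, the filter leaves differences as they are, and centring shifts them by at most 0.07. Only quantile normalization and the offset could move a member by more than the SD, so the tally is no measure of robustness. The median of all genes moved by at most 0.07. F13a1, at 0.04 and -0.04, was at -0.03 and 0.03 after centring and at -0.0567 and 0.0567 after quantile normalization. Tgm3 kept rank 1 among the increases and its direction under each of them. Counts of members past 2-fold were the same under all 5. Tgm5 was below background, so the filter on dim genes gave no value for it. That filter moved 8 medians of gene lists by more than this measure. The medians of the DSS and genotype contrasts were then 0.24 and -0.22 for the envelope substrates, 0.405 and -0.405 for the squamous markers and 0.28 and -0.39 for the platelet markers. That of the matrix substrates in the DSS contrast was 0.71, and that of the platelet markers between IL-4Rα-/- colitis and WT normal was -0.08. The filter keeps a dim gene that is high on 1 array only, so these medians support nothing. Leaving out replicates was not possible with 1 array per group.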
